A study of Arabidopsis thaliana with 4 samples.

Results

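Transcripts of 33 protein-coding genes of the chloroplast genome were followed in Arabidopsis thaliana seedlings exposed to volatiles of the plant pathogen Pseudomonas syringae DC3000. The set was defined by locus identifier. It holds the rpl and rps genes for proteins of the chloroplast ribosome, the rpo genes for the chloroplast RNA polymerase, and matK, accD, clpP, cemA, ccsA, ycf1 and ycf2. Of these 33 loci, 29 had a probe, among 29030 loci with a probe on the array. rps12 (ATCG00065), rps2 (ATCG00160), rpl36 (ATCG00760) and rps7 (ATCG00900) had none under their locus identifier and were not analysed here.

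Exposed seedlings of the wild-type line Col-0 shared the air of an upright plate with the bacteria, and control seedlings of the same line grew on plates without bacteria. By the design text the seedlings had grown for 8 days and the exposure lasted 12 hours, and the sample labels state 12 days. Each of 4 two-colour arrays held exposed RNA in Cy5, a red dye, and control RNA in Cy3, a green dye. Every array had the same dye orientation, and an effect of exposure and a probe's preference for 1 dye cannot be told apart. Nothing in the labels says that the 4 RNA pairs came from separate plants, and the p-values then cover only variation among the arrays, possibly all of it technical.

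Chloroplasts descend from cyanobacteria and keep a small genome with its own machinery for gene expression. A polymerase of bacterial type, whose core subunits are the products of rpoA, rpoB, rpoC1 and rpoC2, works beside a phage-type polymerase encoded in the nucleus, which is known to transcribe the rpoB operon, accD and ycf2. The chloroplast ribosome is built from proteins made in both compartments. Many chloroplast genes lie in operons and are cut from long shared transcripts, and their mRNAs carry no stable poly(A) tail. The labels state that cDNA synthesis was primed with a T-rich oligonucleotide. How the signal of these probes follows the amount of chloroplast mRNA was not tested.

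The arrays differed in quality. The median of the gene spots was 336 to 373 scanner units in the exposed channel of arrays 1 to 3 and 292 to 362.5 in their control channel. On array 4 it was 1286 units in the exposed channel and 575.5 in the control channel. Pearson's r between arrays, taken across all tested genes (no independent replicates), was 0.221 to 0.288 for pairs with array 4 and 0.648 to 0.779 among arrays 1 to 3. Arrays 1 to 3 differed from each other by no more than the noise between spots. Over 50 probes with 5 spots each, the SD between these array means was 0.047 in the median, and 0.051 would follow from the spots alone. The 4 arrays were kept as 4 samples, as labelled, and every call rests on that choice: with arrays 1 to 3 counted as 1 sample, limma called 0 genes, and 1317 had an unadjusted p below 0.05. Shoot and root RNA were both present. The shoot markers CAB1, RBCS1A and CA1 and the root markers PYK10, PRP3 and CASP1 each had a probe well above background on all 4 arrays in both channels.

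Transcripts of this chloroplast-encoded set were mostly lower in exposed seedlings, and other chloroplast-encoded genes were lower too. Of all 66 chloroplast-encoded tested genes, the set among them, 36 were called lower, with a median log2 ratio of -0.39. Of the 29 measured genes, 19 fell and 0 rose, and the other 10 passed in neither direction, at an adjusted p below 0.05 in limma with Benjamini-Hochberg adjustment over 22694 tested genes. Of all tested genes 1.82% were called lower and 1.58% higher, 3.4% in all. With arrays 1 to 3 as 1 sample 0 of the 29 were called and 20 were lower at an unadjusted p below 0.05. Of all 22694 tested genes, 1317 passed that threshold in either direction in this fit. No member was higher at an unadjusted p below 0.05, and 2 were with median centring in place of loess. Median centring also cut the members called lower from 19 to 2, and 211 genes were then called in all. The median log2 ratio of the 29 genes, exposed over control, was -0.47, against -0.0046 over all tested genes. The falls were of modest size, with fitted folds of 1.29 to 1.67 among the 17 called genes that are described singly. In 26 of the 29 genes the log2 ratio was below 0 on every array, as it was in 20.7% of all tested genes. In whole seedlings, fewer cells of a type and less RNA per cell cannot be told apart.

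The set had a median below 0 on all 4 arrays. Its median log2 ratio was -0.48, -0.40, -0.48 and -0.47 on arrays 1 to 4, where the median of all tested genes was 0.0069, 0.0080, 0.0081 and -0.068. By the median of the set, array 4, which stood apart over all genes, lay within the range of the other arrays. Its median over all tested genes was the lowest, so the set lay less far below the other genes there. Before normalization most members read higher in exposed seedlings on array 4. Across the 29 genes, whose points share an array and its normalization, array 4 correlated with arrays 1 to 3 with r = 0.525 to 0.664, and arrays 1 to 3 with each other with r = 0.753 to 0.916. The file headers place arrays 1 and 2 on 1 slide and arrays 3 and 4 on another. The mean of slide 2 was lower than that of slide 1 in 20 of the 29 genes. With the slide as a random block 19 genes were again called lower. The fitted correlation within slides was 0.0080, so that fit could hardly differ from the one without the block.

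**Figure D1:**
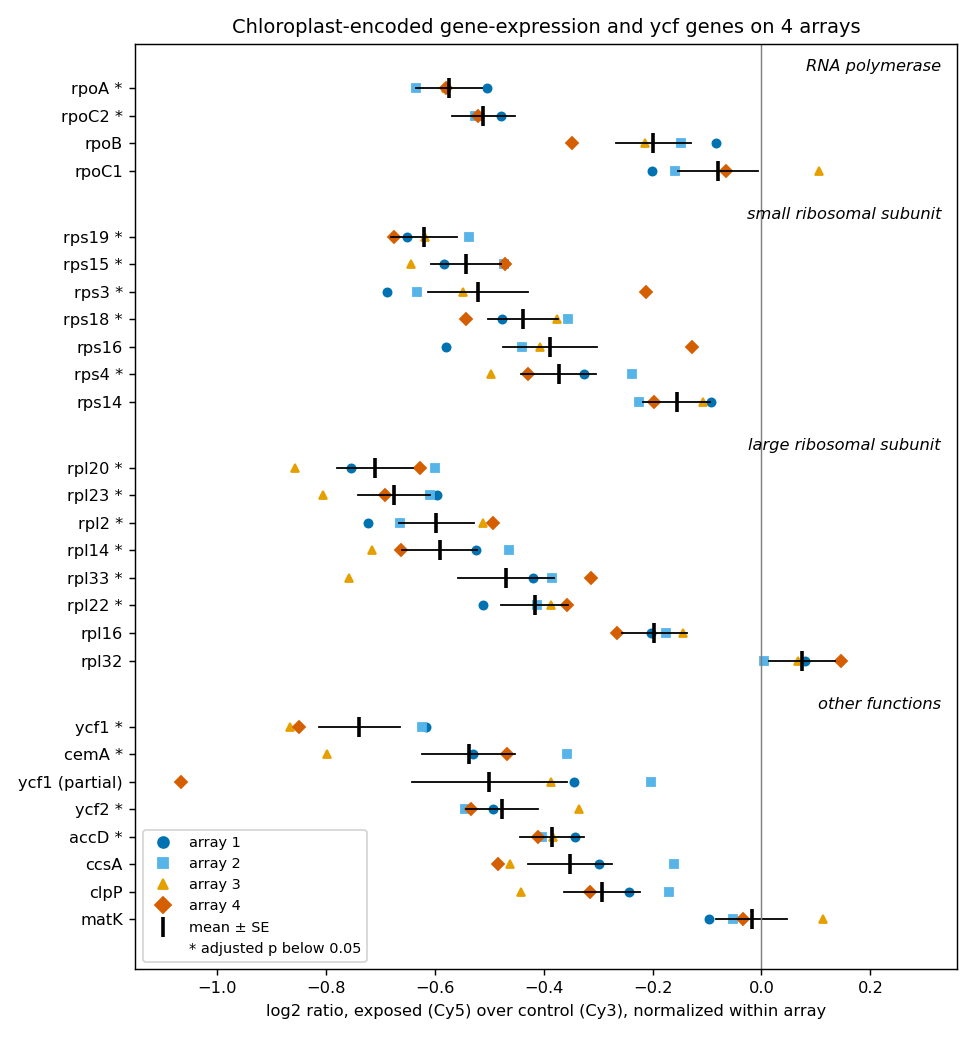
Log2 ratio of exposed (Cy5) over control (Cy3) for 27 of the 29 measured genes, grouped by role. Coloured points are the 4 arrays, black bars the mean with its standard error, and an asterisk marks an adjusted p below 0.05. All 4 points lie left of 0 in 24 of these genes, and rpl32 is the gene with all 4 points right of it.

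Among the polymerase genes, 2 of 4 fell. rpoA (ATCG00740), for the alpha subunit on which the enzyme assembles, read 40531, 34478.5, 37315 and 46814 scanner units in exposed seedlings on arrays 1 to 4, against 43599.8, 36484.5, 42697 and 42046 in control seedlings. These raw readings were lower in exposed seedlings on arrays 1 to 3 and higher on array 4, the array with the brighter red channel. After normalization within each array the log2 ratios of rpoA were -0.50, -0.63, -0.58 and -0.58, all below 0. Most of the fall on every array thus came from the normalization. rpoA was no exception in this. rps4, also called lower, read 59647, 47649, 50382 and 60309 units in exposed seedlings. In control seedlings it read 55388.5, 37833, 53179.8 and 48031 units, so it was raw-higher in exposed seedlings on arrays 1, 2 and 4. Among the called genes, only ycf1 and rpl23 had raw readings lower in exposed seedlings on every array. With median centring in place of loess rpoA was at -0.37 (adjusted p = 0.227 in limma), and 0 of the 4 polymerase genes were called. rpoA was 1.49-fold lower in exposed seedlings (log2 ratio -0.57 ± 0.060 SE, n = 4, adjusted p = 0.0162 in limma).

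rpoC2 (ATCG00170), for the beta'' subunit, read 9067, 7470, 7463 and 10643 units in exposed seedlings and 10645, 8106.5, 9322 and 9973 in control seedlings. Its log2 ratios were -0.48, -0.53, -0.52 and -0.52, with the smallest spread of the 29 genes (SD 0.022). It was 1.43-fold lower (adjusted p = 0.0195 in limma), but not called with median centring (-0.46, adjusted p = 0.132). rpoB (ATCG00190), for the catalytic beta subunit, was at -0.084, -0.15, -0.21 and -0.35, below 0 on every array but not called (log2 ratio -0.20 ± 0.069 SE, adjusted p = 0.145 in limma). rpoC1 (ATCG00180), for the beta' subunit, was at -0.20, -0.16, 0.11 and -0.065. It was on both sides of 0 and not called (log2 ratio -0.080, adjusted p = 0.528 in limma).

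The polymerase genes thus had unequal values, although rpoB, rpoC1 and rpoC2 form 1 operon. Each was read by 1 probe, and probes of 1 gene can differ as much: the 3 probes of matK had means of -0.018, -0.18 and -0.67. Whether the probes or the transcripts differed here was not tested. rpoC2 was lower than rpoC1 on 4 of 4 arrays, by a mean of 0.43 ± 0.15 (SD, n = 4) on the log2 scale. The difference of rpoA from rpoC1 also had 1 sign on all 4 arrays (mean -0.49 ± 0.16). Over the 6 pairs of polymerase genes, a two-sided exact permutation test that flips the signs of the differences gave p = 0.125 in 5 pairs and 0.5 for rpoB against rpoC1. With 4 arrays 0.125 is the smallest p such a test can give, so it cannot pass 0.05 (0.15 after Benjamini-Hochberg adjustment over the 6 pairs).

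Of 9 measured genes for proteins of the small ribosomal subunit, 7 fell and 2 were not called, with a median log2 ratio of -0.44. With median centring the median was -0.38 and 1 of the 9 was called lower. rps19 (ATCG00820) was at -0.65, -0.54, -0.62 and -0.68 and rps15 (ATCG01120) at -0.58, -0.47, -0.64 and -0.47. Their folds were 1.54 and 1.46 (adjusted p = 0.0145 and 0.0213 in limma). rps3 (1.43-fold), rps18 (1.35-fold) and rps4 (1.29-fold) were also called lower. rps3, for a protein at the entry of the mRNA channel, was at -0.55 to -0.69 on arrays 1 to 3 and at -0.21 on array 4. rps16 (log2 ratio -0.39, adjusted p = 0.0643) and rps14 (-0.16, adjusted p = 0.185) were below 0 on every array and not called by limma. rps14, which follows the photosystem genes psaA and psaB in 1 operon, was the small subunit gene nearest to 0.

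Of 8 measured genes for proteins of the large subunit, 6 fell and 2 were not called, with a median log2 ratio of -0.53 (-0.34 and 0 called with median centring). rpl20 (ATCG00660), which lies beside rps12 and clpP, read 19638, 21268, 19370 and 28119 units in exposed seedlings, against 26347, 22731, 28208 and 27099 in control seedlings. Its log2 ratios were -0.75, -0.60, -0.86 and -0.63, and it was 1.64-fold lower (adjusted p = 0.0145 in limma). rpl23 (ATCG00840), for a protein at the exit of the peptide tunnel, was at -0.60, -0.61, -0.80 and -0.69 and was 1.60-fold lower (adjusted p = 0.0144 in limma, the lowest of the set). rpl2 (ATCG00830), for a protein near the peptidyl transferase centre, was at -0.72, -0.66, -0.51 and -0.49, or 1.51-fold lower. rpl14 (ATCG00780) was at -0.52, -0.46, -0.71 and -0.66, also 1.51-fold lower. The other genes called lower were rpl33 (1.38-fold) and rpl22 (1.34-fold).

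rpl16 was at -0.20 (adjusted p = 0.113 in limma) and was not called. rpl32 (ATCG01020), for another large subunit protein, read 142043, 127732, 139201 and 163057 units in exposed seedlings and 94243, 80508, 92602 and 82072 in control seedlings. Its raw readings were thus higher in exposed seedlings on every array, and the loess curve took up most of that difference. After normalization it was at 0.080, 0.0050, 0.067 and 0.15, close to 0 and not called (log2 ratio 0.074 ± 0.061 SE, n = 4, adjusted p = 0.475 in limma). It was the only member with a mean above 0. Its value depends on the scaling, since it was at 0.40 with median centring (adjusted p = 0.173 in limma) and at -0.076 by the scanner software's own log ratio.

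Of the 8 genes with other functions, 4 fell and 4 were not called, with a median log2 ratio of -0.43 (-0.34 and 1 called lower with median centring). ycf1 (ATCG01130), whose product Tic214 is a part of the protein import machinery of the inner envelope, read 5566, 4781.5, 4161 and 6090 units in exposed seedlings and 7360, 5653, 6773 and 7093 in control seedlings. Its log2 ratios were -0.62, -0.62, -0.87 and -0.85. It was 1.67-fold lower, the largest fitted fall of the set (log2 ratio -0.74 ± 0.074 SE, n = 4, adjusted p = 0.0149 in limma). The partial copy of ycf1 (ATCG01000), the dimmest member, was at -0.34, -0.20 and -0.39 on arrays 1 to 3 and at -1.07 on array 4. It was not called with array 4 (adjusted p = 0.1, log2 ratio -0.50) and was at -0.31 without it (adjusted p = 0.00104 in limma).

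ycf2 (ATCG00860), for a large AAA-type protein of the inner envelope, was at -0.49, -0.55, -0.34 and -0.53 and was 1.39-fold lower (adjusted p = 0.0287 in limma). accD (ATCG00500), the chloroplast-encoded subunit of the acetyl-CoA carboxylase that starts fatty acid synthesis, was at -0.34, -0.40, -0.38 and -0.41, a narrow range all below 0. It was 1.31-fold lower (adjusted p = 0.0326 in limma), but not called by the scanner software's log ratio (-0.23, adjusted p = 0.0968). cemA, for an envelope protein, was 1.45-fold lower. clpP (ATCG00670), the chloroplast-encoded subunit of the Clp protease, was at -0.24, -0.17, -0.44 and -0.31, below 0 on every array and not called (adjusted p = 0.0727 in limma). ccsA, which acts in the attachment of haem to c-type cytochromes, was not called either (log2 ratio -0.35, adjusted p = 0.0633).

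matK (ATCG00040), for a maturase that helps to splice chloroplast introns, was read by 3 probes that disagreed. The brightest probe, which stood for the gene, was at -0.096, -0.053, 0.11 and -0.034 (mean -0.018, adjusted p = 0.887 in limma). The second was at -0.35, -0.088, -0.30 and 0.037. The third and dimmest was at -0.71, -0.49, -0.91 and -0.59, with a mean of -0.67, and the mean of the 3 probes was -0.29 (adjusted p = 0.0645 in limma). The level of matK therefore depends on the probe. The second probes of ycf1 (mean -0.60) and ycf2 (mean -0.29) had the same sign as the first on every array. The other 26 genes had 1 probe each.

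**Figure D2:**
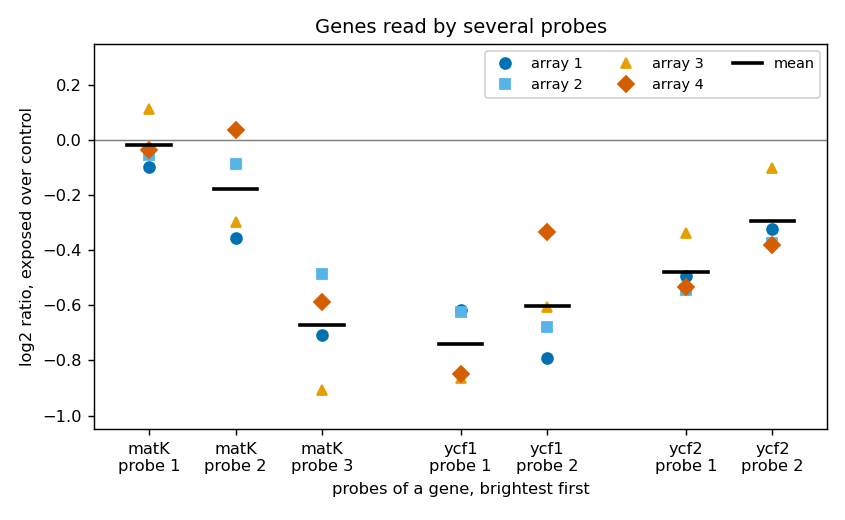
Log2 ratio of exposed over control for the single probes of matK, ycf1 and ycf2, the genes with several probes, ordered within a gene from the brightest to the dimmest. Points are arrays and bars are means. The matK probes have means of -0.018, -0.18 and -0.67.

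The cluster that runs from rpl23 to rpoA, which is transcribed as a long unit, held 10 of the measured genes, and 9 of them fell. Its median log2 ratio was -0.58. With median centring the median was -0.35 and 1 of the 10 was called lower. rpl23, rpl2 and rps19 at 1 end and rpl14 further on were at -0.59 to -0.68. Between them rpl22 and rps3 were at -0.42 and -0.52, and rpl16, the member not called, was at -0.20. rpoA, the last gene, was at -0.57. Array 4 was at -0.21 at rps3, above the other arrays there. Of 5 genes known as targets of the nucleus-encoded polymerase, rpoC2, ycf2 and accD fell and rpoB and rpoC1 were not called, with a median of -0.38 beside -0.47 for the whole set.

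**Figure D3:**
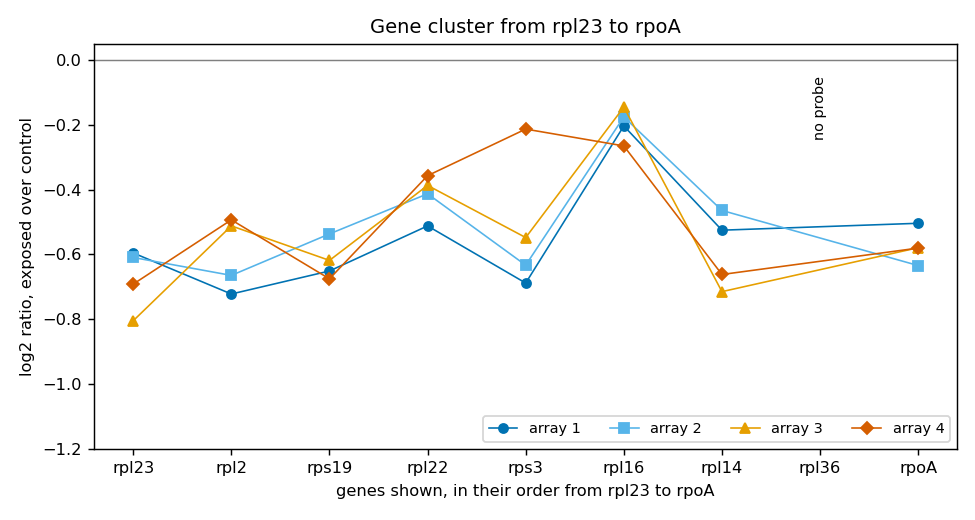
Log2 ratio of exposed over control for genes of the cluster from rpl23 to rpoA, in gene order and not to scale. Each line is 1 array, rpl36 had no probe, and every point lies below 0. rpl16 is the point nearest to 0 on arrays 1 to 3, and rps3 is on array 4.

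rpl2, rpl23, ycf2, rps7 and rps12 lie in the inverted repeat of the chloroplast genome, where a second copy of each gene can feed the same probe, and part of ycf1 is repeated too. Whether a probe read both copies was not tested. The array lists a probe for rps12 and 1 for rps7 under the identifiers ATCG01230 and ATCG01240, outside the set as defined. The rps12 probe was at -0.51, -0.46, -0.32 and -0.31, all below 0. The rps7 probe was at -0.11, -0.013, 0.075 and -0.011, close to 0 as rpl32 was.

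All 33 probes of the set were well above background on every array in both channels, and none was saturated or marked as an outlier spot. Most were bright. The median log2 intensity of the set was 14.3 against 9.91 for all tested genes. The brightest members were matK (17.1) and rpl32 (16.8), whose ratios were among those nearest to 0 (0.33 and 0.40 with median centring), while the partial copy of ycf1 (9.57) and rpoB (10.2) were the dimmest. Over the 29 genes, which share arrays and normalization, the log2 ratio had a Spearman rho of 0.051 with brightness. The part of brightness in these ratios was not tested. With all organelle-encoded probes left out of the fitted loess curve, the median of the set was -0.47 and 19 genes were called lower. Such probes were few, with 66 chloroplast-encoded and 62 mitochondrion-encoded genes among 22694 tested. In all, 772 genes were called in that fit and 771 in the main one. That fit thus did not test the part of the loess curve in the fall.

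**Figure D4:**
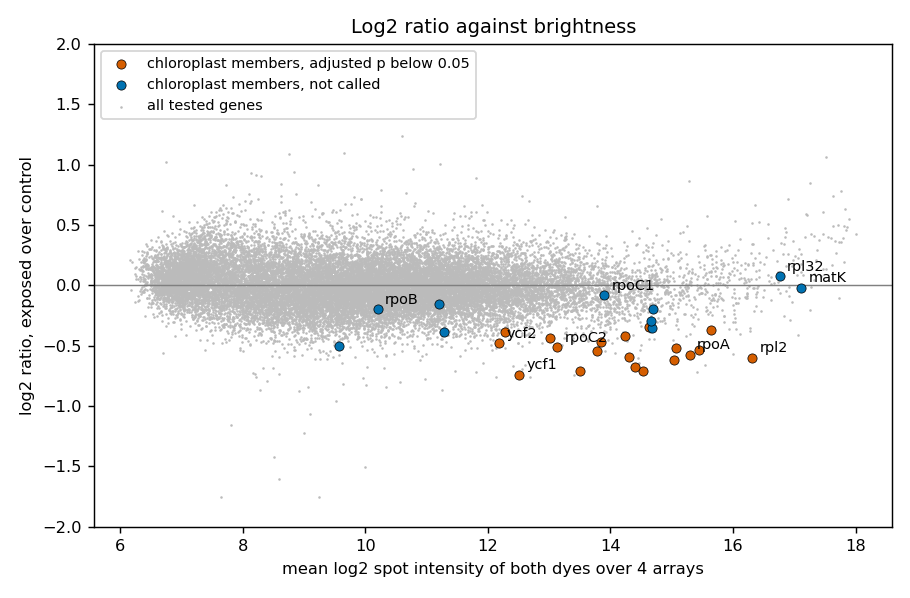
Log2 ratio of exposed over control against mean log2 spot intensity for 22694 tested genes in grey and the 29 chloroplast-encoded genes in colour. Orange points have an adjusted p below 0.05, blue points were not called. The coloured points lie mostly below 0 from an intensity of 9.57 to 17.1.

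The other chloroplast-encoded genes are given for comparison. Of 11 genes for subunits of the NDH complex, which returns electrons to the plastoquinone pool, 7 fell and none rose (median log2 ratio -0.45), led by ndhH (ATCG01110, -0.71), ndhI (ATCG01090, -0.72), ndhG (ATCG01080, -0.54) and ndhB (ATCG00890, -0.54). Of 21 measured photosynthesis genes, 8 fell and none rose (median -0.21). At an unadjusted p below 0.05, 3 were higher, as were 2593 of all 22694 tested genes. The called photosynthesis genes were led by ycf4 (ATCG00520, -0.56), psaA (ATCG00350, -0.47), petB (ATCG00720, -0.57) and psbB (ATCG00680, -0.45). With median centring the NDH genes had 1 lower and 0 higher (median -0.27), and the photosynthesis genes 0 lower and 2 higher (median -0.065). Of 62 mitochondrion-encoded genes 4 fell and 1 rose (median -0.055). The differences between these groups were not tested.

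Among nuclear genes whose products work with the chloroplast-encoded proteins, 2 were called, both lower. The lists held 40, 12, 8, 13, 9, 4 and 3 genes, and of all tested genes 1.82% were called lower. Of 40 genes for plastid ribosomal proteins made in the cytosol, 0 were called by limma, with 6 lower and 5 higher at an unadjusted p below 0.05. Over all 22694 tested genes, 3035 were lower and 2593 higher at that threshold. The median log2 ratio of the 40 was -0.039, and 0.094 with 1 called higher under median centring. The lowest p in this list belonged to RPL12-A (log2 ratio 0.29, adjusted p = 0.0579), PSRP2 (-0.28, adjusted p = 0.0602) and AT1G05190, for plastid L6 (-0.27, adjusted p = 0.062). Of 12 proteins that associate with the plastid-encoded polymerase 0 were called, with 1 lower and 0 higher at an unadjusted p below 0.05. PTAC3 was at -0.25 (adjusted p = 0.0831 in limma), PTAC12 at -0.15 and FLN1 at -0.13. Of 8 sigma factors and phage-type polymerases 0 passed, also at an unadjusted p below 0.05, with SIGE (SIG5) at -0.16, SIG2 at 0.18 and SIGC (SIG3) at -0.20.

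Of 13 nuclear partners of ClpP, CLPC1, the main chaperone of the protease, fell (1.45-fold, log2 ratio -0.53 ± 0.069 SE, n = 4, adjusted p = 0.0248 in limma). CLPC1 was at -0.47, -0.42, -0.67 and -0.58, below 0 on every array. ERD1 (CLPD) at -0.22 and CLPR1 at -0.26 were not called. At an unadjusted p below 0.05, 5 of the 13 were lower and 0 higher, beside 3035 lower and 2593 higher of all 22694 tested genes. Of 9 nuclear partners of the ycf1 and ycf2 products, AT3G04340, for the FtsH-like protein FtsHi5, fell (1.33-fold, adjusted p = 0.0471 in limma). AT3G16290 (-0.28) and FTSH12 (-0.32) were not called. In this list 8 of 9 genes were below 0 (median -0.18), as were 11570 of all 22694 tested genes. At an unadjusted p below 0.05, 5 of the 9 were lower and 0 higher. With median centring neither CLPC1 nor AT3G04340 was called. None of the 4 nuclear partners of accD (CAC2 0.24, CAC3 -0.20, BCCP2 -0.096) or of the 3 of ccsA (AT1G49380 -0.21, CcdA 0.013, HCF164 -0.0038) was called. At an unadjusted p below 0.05 the accD partners had 1 lower and 1 higher, and the ccsA partners 1 lower.

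**Figure D5:**
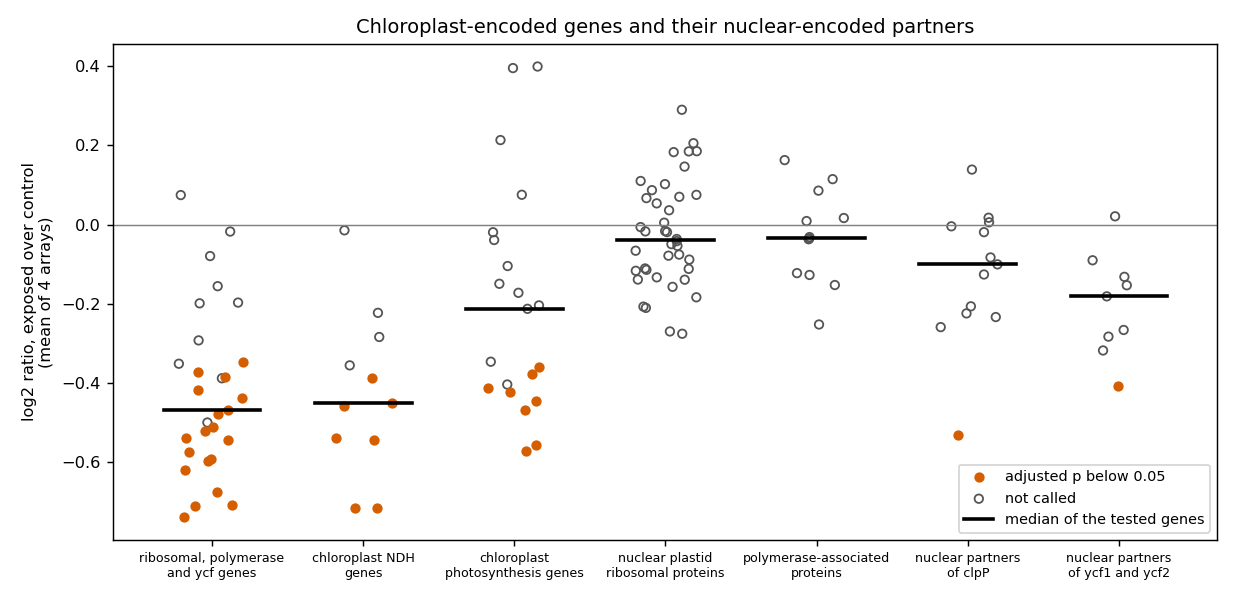
Log2 ratio of exposed over control, mean of 4 arrays, for the measured chloroplast-encoded gene expression and ycf genes, for other chloroplast-encoded genes and for nuclear partners. Each point is a gene, filled where the adjusted p was below 0.05, and bars are medians. The medians are -0.47, -0.45 and -0.21 for the chloroplast-encoded lists and -0.039 for nuclear plastid ribosomal proteins.

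The tissue markers had log2 ratios above 0. All 3 shoot markers were called higher, CAB1 at 0.50, RBCS1A at 0.49 and CA1 at 0.35, with array medians from 0.35 to 0.53. Of the 3 root markers PYK10 (0.61) and PRP3 (0.44) were called higher and CASP1 was at 0.27 (adjusted p = 0.0613 in limma), with array medians from 0.34 to 0.50. When probes of a gene were averaged, none of the 3 shoot markers and 1 root marker was called. The median of the shoot markers was then 0.12, and it was 0.90 with median centring. The part of the tissue markers in the fall of the chloroplast-encoded genes was not tested.

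The number of calls depended on single arrays, and the sign of the median did not. Without array 1, 2 or 3, limma called 0 members and 0 genes in all, with 24, 23 and 24 members lower at an unadjusted p below 0.05. Of all 22694 tested genes, 3580, 3873 and 3494 passed that threshold in either direction in these fits. Without array 4 it called 24 members lower, including all 19, beside 7053 of all genes. The median of the set was -0.47 to -0.45 in these fits, and -0.42 with arrays 1 to 3 as 1 sample. With median centring in place of loess the median was -0.36, 26 members were below 0 and 2 were called lower, among them ycf1, and the calls over all genes were 161 higher and 50 lower, where loess gave 358 higher and 413 lower. Plain background subtraction gave 656 higher and 489 lower over all genes, with 19 members lower.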

How the data were processed

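Each of the 4 deposited files gives linear intensity values of 45220 spots, made with Agilent Feature Extraction 11.5.1.1 per the file headers and 8.5.1.1 per the submitters' processing notes. The software's deposited log10 ratio of processed Cy5 over Cy3, per the file headers, was an alternative, converted to log2. The deposited log2 values of the series matrix were not used: within 0.001, its array 1 column was log2 of processed Cy5 over Cy3 signal and the other columns divided the error of the Cy3 signal by the Cy5 signal, at 43802 or 43803 of 43803 gene spots (medians -0.036, -3.18, -3.18 and -3.20). In R 4.3.3 with limma 3.58.1, median signal and median local background were corrected by normexp (offset 50). Ratios were normalized by loess within each array, with control and outlier spots at weight 0. A probe was tested if 1 channel was well above background on 3 or more of 4 arrays, the brightest standing for a locus, by lmFit and eBayes against 0, two-sided. The fit was tested on simulated data.

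Genes were found by locus. The gene table (TAIR10.1) lists chloroplast genes under other tags, so member symbols follow standard Arabidopsis locus nomenclature; all 32 looked up occur among its plastid genes. No array or probe sequence was used here, and no coordinates are printed. The members and lists were chosen with earlier results of these data known. Genes given in full were the 10 called with the lowest p, the 2 highest and lowest, and the polymerase, accD, clpP, ycf1 and ycf2 genes. From other lists, up to 4 called genes or the lowest p were named. The values of 2 members are not reported singly here and count only in totals and medians. The number of arrays limits precision.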

Additional observations from a re-analysis of the deposited data

How the results depend on the processing

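The median of the 29 genes was negative under all 16 alternatives, from -0.47 to -0.36, and no member was called higher under any. All but median centring and the scanner software's log ratio kept the loess normalization, so the alternatives are not independent of each other. Calls for members lower numbered 19 with loess and 2 with median centring (median -0.36, 211 genes called in all), 20 by the scanner software's log ratio, 16 with a normexp offset of 10, 14 with no filter on dim probes (292 genes in all) and 25 with array weights (8275 genes in all). Leaving out 1 array gave 0 to 24 members lower, medians of -0.47 to -0.45 and 0 to 7053 genes in all. With arrays 1 to 3 as 1 sample there were 0 members lower and 0 genes in all, at a median of -0.42. Single genes changed sign in 4 cases. matK was at 0.33 with median centring and -0.061 to 0.0085 leaving out 1 array (0.0085 without replicate 1), rpoC1 at 0.018 with median centring and rpl32 at -0.076 by the software's log ratio. Of 464 values of single members under an alternative, 345 kept their direction and their side of the threshold, 102 lost a call, 13 gained one and 4 were those changes of sign. The causes were not tested. Each ratio pairs the exposed and control RNA of 1 array, so the fit is itself paired and no further replicate block was added.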
